A study of Rattus norvegicus with 35 samples.

Results

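A set of 10 axon guidance genes was named for study in the rat olfactory epithelium, from 4 families: the semaphorin Sema3a with its receptors Nrp1, Nrp2 and Plxna1, the Slit ligand Slit1 with its receptors Robo1 and Robo2, the ephrin Efna5 with the Eph receptor Epha5, and the adhesion molecule Kirrel2. Members were found by their symbol in the probe annotation of the arrays. This search found 12 probes for 8 of the 10 genes, among 41012 different probes and 13555 named genes in all. Plxna1 and Kirrel2 were not matched to a probe and were not analysed here.

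RNA was measured on 35 one-colour Agilent arrays from 27 Brown Norway rats. There were 19 newborn pups of 3 to 5 days, whose sex was not known, from 4 litters (4 pups in L1 and 5 each in L2, L3 and L4), with 1 array per pup. There were also 4 male adult rats of 9 weeks and 4 male old rats of 22 months, with 1 array for each side of the nose. The 2 sides of a rat were averaged, so that the rat was the replicate, and no group had received a treatment. The epithelium was dissected as tissue and holds neurons, supporting cells, basal cells and connective tissue.

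Olfactory sensory neurons are replaced throughout life, and each new neuron grows an axon through the lamina propria to a glomerulus of the olfactory bulb. Secreted semaphorins and Slits mostly repel axons that carry neuropilin and plexin, or Robo, receptors, whereas ephrins are bound to membranes and signal to cells that carry Eph receptors. In the olfactory system, these cues are known for sorting axons in the nerve and along the axes of the bulb, and Kirrel adhesion molecules for holding like axons together.

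For Slit1 and Robo2, the brightest probe, which stood for the gene, is not among the sequences below. These sequences are examples of the probes whose brightness gives the values below. They are 60 bases long, are written 5′ to 3′ in the sense of the transcript as the array files give them, and have no part set in capitals.
Sema3a: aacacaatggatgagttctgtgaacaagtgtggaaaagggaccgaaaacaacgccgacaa
Nrp1: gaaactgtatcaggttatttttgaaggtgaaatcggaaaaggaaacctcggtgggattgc
Nrp2: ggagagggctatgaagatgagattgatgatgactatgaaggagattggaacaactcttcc
Slit1, second probe: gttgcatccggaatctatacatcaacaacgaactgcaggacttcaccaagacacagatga
Robo1: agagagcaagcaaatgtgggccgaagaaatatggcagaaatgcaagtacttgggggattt
Robo2, second probe: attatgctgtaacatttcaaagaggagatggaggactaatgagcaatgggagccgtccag
Efna5: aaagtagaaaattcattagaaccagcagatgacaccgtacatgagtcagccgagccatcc
Epha5: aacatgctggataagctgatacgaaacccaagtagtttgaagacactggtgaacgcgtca

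In the rn3 build named in the array annotation, the Sema3a probe lies at chr4:17575223-17575282 on the minus strand, and the Robo1 probe at chr11:11719214-11719273 on the plus strand. The Epha5 probe lies at chr14:25880307-25880366 on the plus strand, and the second Slit1 probe at chr1:246930364-246930423 on the minus strand. The other 4 probes shown cover more genome than their own length, so they join separate stretches of it: Nrp1 at chr19:58487361-58487852 (plus strand), Nrp2 at chr9:61604250-61606887 (plus strand), the second Robo2 probe at chr11:12708249-12717814 (minus strand) and Efna5 at chr9:101437228-101443110 (minus strand). The first Slit1 probe (chr1:246929032-246929092), the first and last Robo2 probes (chr11:12665243-12665302 and chr11:12666336-12667346) and a second Epha5 probe (chr14:25884306-25884365) are on the same strands as the other probes of their genes. No exon or UTR annotation of this build was used here.

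A level below is the log2 of a probe's intensity over the median intensity of its array, so 0 is the array's median probe and a step of 1 is a doubling. Levels of different probes also depend on how well each binds, and are not compared with each other. The array medians were 42.07 to 87.75 intensity units in newborns, 82.36 to 163.6 in adults and 37.17 to 55.3 in old rats, and 24484 to 28361 probes per array were above background. A transcript was tested where it was above background in all 6 groups (the 4 litters, adult and old), which held for 23668 probes. It was called where the adjusted p of limma, a linear model test across all these probes, was under 0.01. Of the 8 genes, 6 passed this filter; Nrp2 and Efna5 were too dim, and their values come from a fit over all 41012 probes. The newborn value is the mean of the 4 litter means. The standard error (SE) and p of a newborn comparison come from the spread of rats within groups. They leave out the spread between litters. Scan days differed between groups: adult arrays were alone on 2 of 5 scan days, L1 and the old rats shared 1, and L2, L3 and L4 shared the other 2. Age and scan day thus cannot be told apart except for L1 against old. All 8 adult arrays, and no others, were extracted with the earlier of 2 releases of the Feature Extraction software, so release and adult age cannot be told apart either. No slide held more than 1 age, and L1 and the old rats were on different slides. In bulk tissue, fewer cells of a type and less RNA per cell cannot be told apart.

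Lists of markers were read for the cell types this tissue can hold. Omp, the olfactory marker protein of mature neurons, was above background in all 3 ages, and it was lower in newborns by 2.20 ± 0.15 (SE) on the log2 scale against old rats (limma adjusted p = 5.82e-12). All 9 tested markers of mature olfactory sensory neurons were lower in newborns than in adults (median log2 change -2.02). All 7 of immature neurons (median 0.78), all 6 of cycling and globose basal cells (2.38) and 5 of 6 of fibroblasts (1.31) were higher. Among all tested transcripts, 40.1% were higher and 26.1% lower in newborns than in adults. The summed level of the mature neuron list ran from 1129 to 2231 times the array median in pups, 3913 to 4910 in adults and 7505 to 9039 in old rats. That of the cycling list ran from 265 to 470, 57.9 to 69.7 and 33.8 to 41.9, and that of the fibroblast list from 3076 to 7518, 2151 to 3485 and 397 to 749. Such sums weigh the brightest probes most. Of the 9 mature neuron markers, 3 were lower in adults than in old rats and 6 were not called, with a median log2 change of -0.28. Of all tested transcripts, 32% were lower in adults than in old rats. S100b of glia and Tek of blood vessels were above background on no array. The part of these lists in the members' changes was not tested.

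Newborn and adult rats differed in 3 of the 6 tested members: Sema3a was higher in newborns, and Robo1 and Epha5 were lower. Over all 23668 transcripts, 40.1% were higher and 26.1% lower in newborns, or 66.2% in either direction. Newborn and old rats also differed in 3 members, with Sema3a and Nrp1 higher in newborns and Epha5 lower, where the background was 28.3% higher and 31.5% lower. Adult and old rats differed in 2, Robo1 being higher in adults and Slit1 lower, against 15.5% higher in adults and 32% lower. The median log2 change of all transcripts was 0.16, -0.03 and -0.19 in these 3 comparisons, and -0.01, -0.05 and -0.04 after quantile normalization. The 3 comparisons share samples and are not independent.

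**Figure D1:**
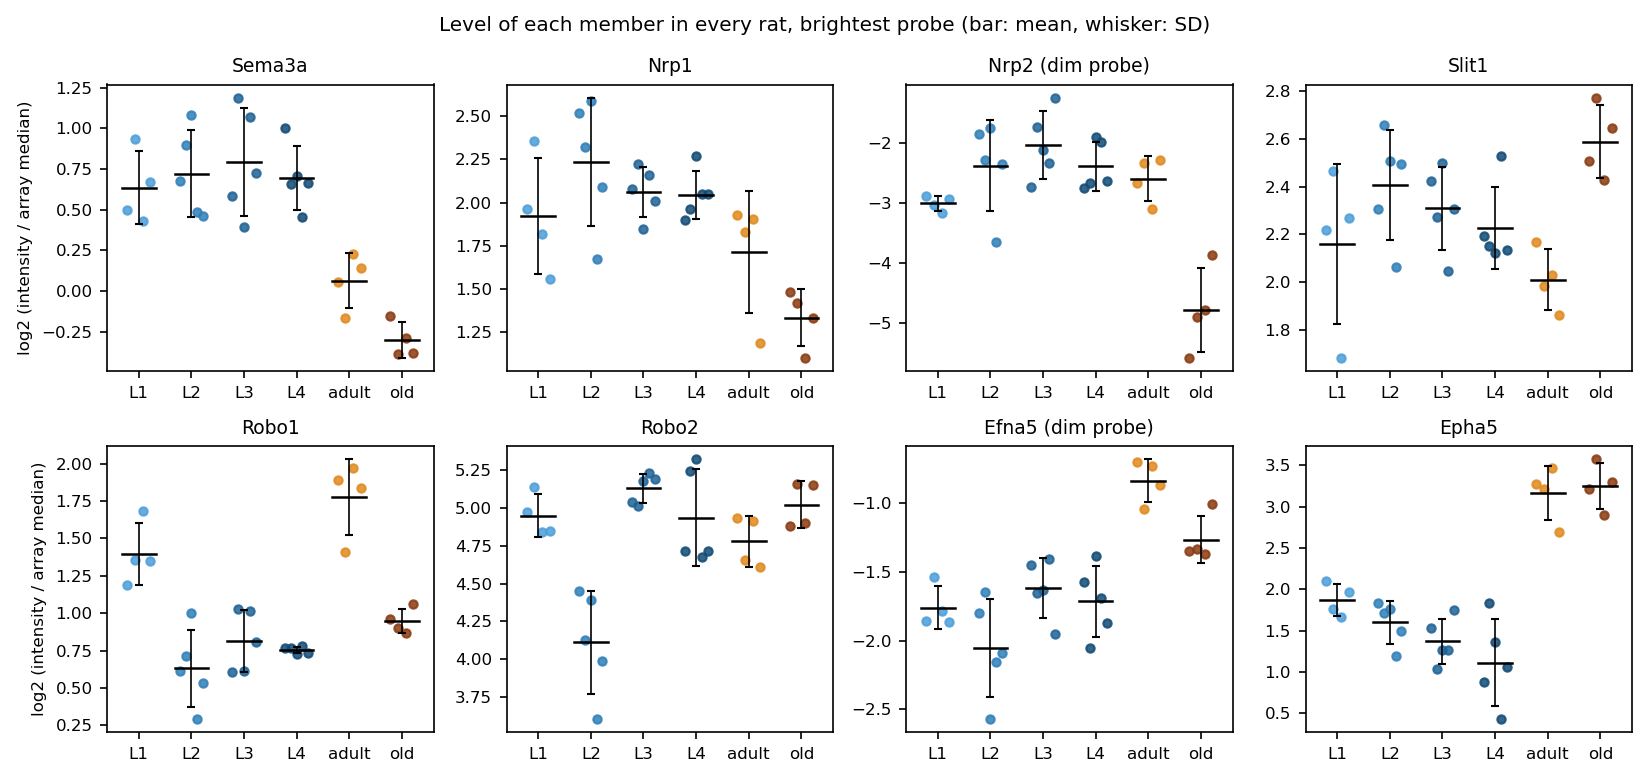
Each panel plots 1 gene, with the level (log2 of intensity over the array median) on the vertical axis and the 4 litters, adult and old rats on the horizontal axis; points are rats, bars group means and whiskers SD. Sema3a was highest in the pups and Epha5 lowest in them, while Robo1 was highest in adults and the Nrp2 and Efna5 probes were dim.

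Sema3a, a secreted semaphorin that repels axons bearing neuropilin, was highest in newborns, lower in adults and lowest in old rats by its means. The level was 0.39 to 1.19 in the 19 pups, with a median of 0.67. It was 0.05, -0.16, 0.23 and 0.14 in the 4 adults and -0.15, -0.39, -0.29 and -0.38 in the 4 old rats. No pup overlapped with an adult or old rat, and the lowest adult lay just below the highest old rat. Newborns were higher than adults by 0.65 ± 0.13 (SE, limma adjusted p = 6.42e-05), or 0.48 beyond the median change of all transcripts. They were higher than old rats by 1.01 ± 0.13, or 2.02-fold (limma adjusted p = 1.54e-07). The adult and old rats differed by 0.37 ± 0.16, which did not pass the threshold (limma adjusted p = 0.0552), but passed when litter means stood for the newborn replicates (0.00714). The litter means ran from 0.63 to 0.79 (limma adjusted p among litters = 0.804). Within the scan day they shared, L1 exceeded the old rats by 0.94 (limma adjusted p = 1.73e-04 on those arrays alone).

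Nrp1, the neuropilin that binds Sema3a, had the same order of means. Its level ran from 1.56 to 2.59 in pups, with a median of 2.05. In adults it was 1.93, 1.83, 1.90 and 1.19, and in old rats 1.48, 1.42, 1.1 and 1.33. All pups lay above all old rats, and 1 adult lay among the old rats, away from the other 3. Newborns exceeded old rats by 0.73 ± 0.14, or 1.66-fold (limma adjusted p = 7.34e-05). The differences of 0.36 ± 0.14 between newborn and adult (limma adjusted p = 0.0276) and 0.38 ± 0.18 between adult and old (limma adjusted p = 0.0782) did not pass. L1 exceeded the old rats by 0.59 on the scan day they shared; limma's adjusted p was 0.00766 with all groups in the fit and 0.0124 on those arrays alone. Over the 27 rats, the levels of Nrp1 and Sema3a had a Pearson r of 0.77, and 0.41 once each group's mean was removed; the points share arrays and age groups.

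Nrp2, the neuropilin that chiefly binds other class 3 semaphorins, could be followed only near background. Its probe was above background on 5 of 19 newborn arrays, 3 of 8 adult arrays and no old array. The level was -3.65 to -1.24 in pups, -2.67, -2.33, -3.10 and -2.27 in adults, and -5.59, -4.91, -4.79 and -3.87 in old rats. The old rats lay below all others. No fold is given, because the probe was not well above background on any old array and the bound on the fold came out under 1. The limma adjusted p in the fit over all probes was 4.46e-07 for newborn against old and 5.25e-05 for adult against old. The median log2 change of the 6859 probes above background on no array was -0.01 and 0.00 in the same comparisons. Their quartiles were -0.43 and 0.24 for newborn against old, and -0.43 and 0.30 for adult against old. On the Nrp2 probe the old arrays read -0.09 to 4.12 intensity units, and the 2 sides of an old rat differed by 1.45 on average. Both limma adjusted p thus rest on old values at background. The second call was lost with 3 alternatives: scaling to the 75th percentile (limma adjusted p = 0.0177), normexp background followed by quantile normalization (0.0184) and a floor of 0.1 times the array median (0.0505).

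Slit1, a secreted ligand of Robo receptors, was highest in old rats and lowest in adults. The first probe read 1.68 to 2.66 in pups (median 2.27), 2.17, 1.98, 2.03 and 1.86 in adults, and 2.51, 2.77, 2.43 and 2.64 in old rats. Adults and old rats did not overlap, and pups overlapped with both. Adults were below old rats by 0.58 ± 0.14 on the log2 scale, or 1.49-fold (limma adjusted p = 0.00143); with the scan day as a random block the p was 0.0216. The second probe had the same order, with an adult minus old difference of -0.44 ± 0.17 that did not pass (limma adjusted p = 0.0243). For the first probe, the newborn minus adult difference was 0.26 ± 0.11 (limma adjusted p = 0.037) and the newborn minus old difference -0.31 ± 0.11 (0.0164). Both missed the threshold. The first passed without pup 11 of L1 (0.30, limma adjusted p = 0.00701). The second passed without pup 10 of L1 (-0.34, limma adjusted p = 0.00802), without pup 34 of L4 (-0.33, 0.0092) and, with all rats kept, under 4 alternatives: scaling to the 75th percentile (0.00505), quantile normalization (0.00548), normexp followed by quantile normalization (0.00502) and every array with the rat as a random block (0.00731). On the scan day they shared, the L1 minus old difference of the first probe was -0.43 and was not called. Limma's adjusted p was 0.0131 with all groups in the fit and 0.046 on those arrays alone.

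Robo1, a receptor of Slit proteins, was highest in adults. Its level was 1.89, 1.41, 1.97 and 1.84 in the 4 adults and 0.96, 0.90, 0.87 and 1.06 in the 4 old rats. In pups it ran from 0.29 to 1.68, with a median of 0.77. Adults and old rats did not overlap, whereas the highest pup lay within the adult range. Newborns were lower than adults by 0.88 ± 0.11 on the log2 scale, or 1.84-fold (limma adjusted p = 6.08e-08). The SD of the litter means was 0.34, a spread that this SE and p leave out. Adults were higher than old rats by 0.83 ± 0.14, or 1.78-fold (limma adjusted p = 1.37e-05; 0.0132 by the methods' t-test on the rats, adjusted in the same way). Newborns and old rats differed by -0.05 ± 0.11 (limma adjusted p = 0.692).

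That newborn mean of Robo1 hides a split between litters. The 4 pups of L1 read 1.19, 1.36, 1.68 and 1.35, while L2 read 0.62, 0.72, 1.0, 0.29 and 0.53. L3 ran from 0.61 to 1.03 and L4 from 0.73 to 0.78. All L1 pups lay above all pups of the other litters, and limma gave an adjusted p of 1.67e-04 among the 4 litters, where 37.7% of all transcripts were called. L1 was also the only litter scanned on the same day as old rats, and on those arrays alone it exceeded them by 0.45 (limma adjusted p = 0.00773, where 48.4% of transcripts were called between L1 and old in the fit of all groups). With the slide as a random block the limma adjusted p among the 4 litters was 0.00492. Among L2, L3 and L4, with scan day as a block, Robo1 was not called (limma adjusted p = 0.199). All 4 pups of L1 were on 1 slide and 1 scan day that held no other litter, so for L1 litter, slide and scan day cannot be told apart.

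Robo2, the other Slit receptor measured, varied more between litters than between ages. Its first and brightest probe read 4.93, 4.65, 4.92 and 4.61 in adults and 4.88, 5.16, 4.90 and 5.15 in old rats. It ran from 3.60 to 5.32 in pups, with a median of 4.84. The 3 ages overlapped, and newborns differed from adults by 0.00 ± 0.12 (limma adjusted p = 0.985) and from old rats by -0.24 ± 0.12 (0.0887). Adults and old rats differed by -0.24 ± 0.16 (limma adjusted p = 0.195). The SD of the litter means was 0.45 on this probe, a spread that the SE and p of the newborn comparisons leave out.

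The low values of Robo2 were those of L2. Its 5 pups read 4.45, 4.13, 4.39, 3.60 and 3.99 on the first probe, below all 14 other pups, whose litter means were 4.93 to 5.13. Limma gave an adjusted p of 1.21e-05 among the 4 litters. The last probe had the same gap in its means (0.33 in L2 against 1.1 to 1.48; limma adjusted p = 6.85e-05), and the second probe had a smaller one (1.59 against 1.88 to 2.03; 0.0959). With the slide as a random block the limma adjusted p was 1.61e-04 for the first probe and 9.46e-04 for the last. L2 shared both of its scan days with L3 and L4. With scan day as a block and only these 3 litters, where 10.9% of transcripts were called, the limma adjusted p was 7.18e-04 for the first probe, 0.0035 for the last and 0.0298 for the second. On the first of these days alone, the 4 pups of L2 ran from 3.99 to 4.45 on the first probe, the 3 of L3 from 5.01 to 5.23 and the 4 of L4 from 4.71 to 5.32, with no overlap between L2 and the others. On that day each of the 3 litters had a slide of its own, so litter and slide cannot be told apart there.

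The 3 Robo2 probes did not agree on the adult comparison. The last probe was lower in newborns than in adults by 0.72 ± 0.15 on the log2 scale (limma adjusted p = 1.58e-04), and the second differed by -0.31 ± 0.14 without passing (0.0438). Without L2, a choice made after seeing the data, these were -0.49 (limma adjusted p = 0.00246) and -0.22 (0.148), and that of the first probe was 0.23 (0.0717). In the quantile normalized values, the newborn minus adult difference of the first probe was -0.27, which was not called either (limma adjusted p = 0.0726).

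**Figure D2:**
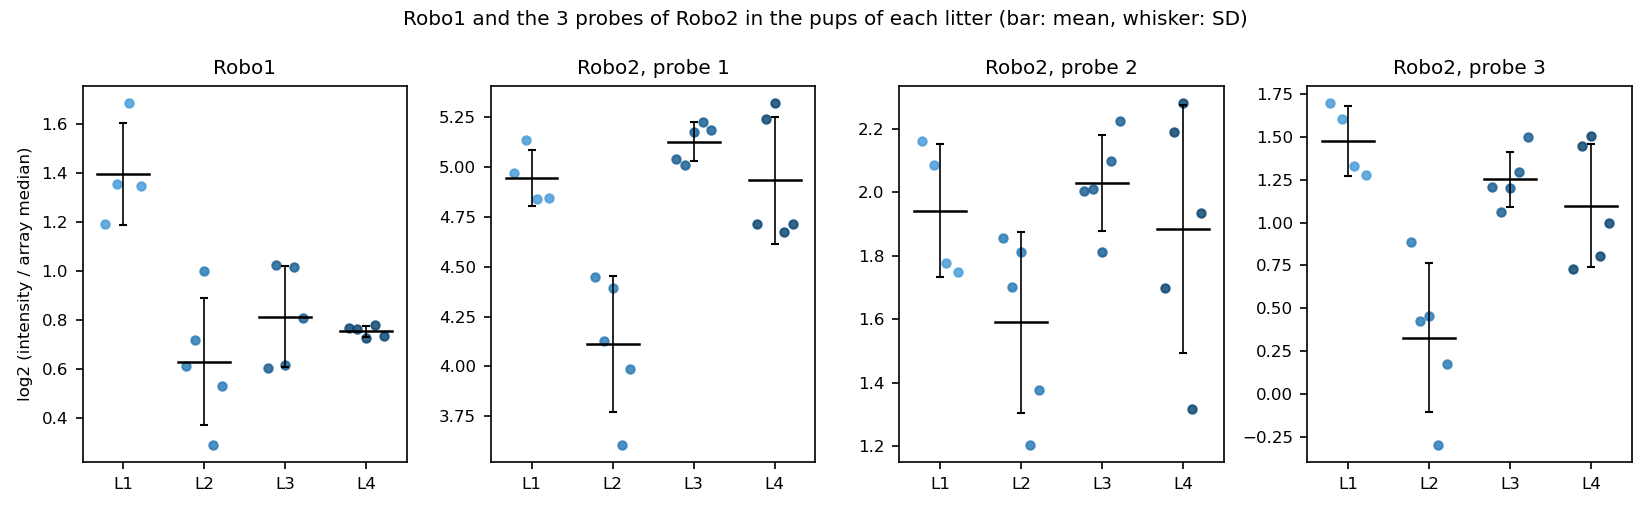
Panels plot the level (log2 of intensity over the array median) of Robo1 and of the 3 Robo2 probes on the vertical axis against litter on the horizontal axis; points are pups, bars litter means and whiskers SD. L1 stands above the other litters for Robo1, and L2 has the lowest mean of each Robo2 probe, without overlap on the first.

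Efna5, a membrane-bound ephrin, was lowest in newborns although its probe was dim. It was above background on 11 of 19 newborn, 8 of 8 adult and 6 of 8 old arrays. The level was -2.57 to -1.39 in pups (median -1.79), -0.70, -1.04, -0.73 and -0.87 in adults, and -1.35, -1.33, -1.37 and -1.01 in old rats. Pups overlapped with neither older group, but the highest pup (-1.39) lay just below the lowest old rat (-1.37). The 2 sides of an old rat differed by 0.45 on average on this probe. In the fit over all probes, newborns were lower than adults by 0.95 ± 0.13 on the log2 scale, or 1.93-fold (limma adjusted p = 1.38e-06), and lower than old rats by 0.52 ± 0.13, or 1.43-fold (limma adjusted p = 0.00183). With normexp background and quantile normalization the second difference was -0.10 and was not called (limma adjusted p = 0.019). The adult minus old difference of 0.43 ± 0.17 did not pass (limma adjusted p = 0.0439). On the scan day they shared, the L1 minus old difference was -0.49 and was not called. Limma's adjusted p was 0.0212 with all groups in the fit and 0.0118 on those arrays alone.

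Epha5, a receptor of such ephrins, had the largest change of the 6 tested members. The pups ran from 0.43 to 2.10, with a median of 1.53. The 4 adults read 3.27, 3.21, 3.47 and 2.70, and the 4 old rats 3.22, 3.57, 2.90 and 3.3. Pups overlapped with neither group, whereas adults and old rats filled the same range. Newborns were lower than adults by 1.67 ± 0.18 on the log2 scale, or 3.19-fold (limma adjusted p = 6.48e-09), and lower than old rats by 1.76 ± 0.18, or 3.38-fold (limma adjusted p = 4.24e-09). Adults and old rats differed by -0.09 ± 0.23 (limma adjusted p = 0.765). The second Epha5 probe was also called in both newborn comparisons, with log2 changes of -1.07 ± 0.19 (limma adjusted p = 2.19e-05) and -1.28 ± 0.19 (2.26e-06). On this probe pups overlapped with adults (highest pup 2.27, lowest adult 2.18) but not with old rats. L1 lay below the old rats by 1.37 on the log2 scale on the scan day they shared, a call that held on those arrays alone (limma adjusted p = 7.07e-05).

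**Figure D3:**
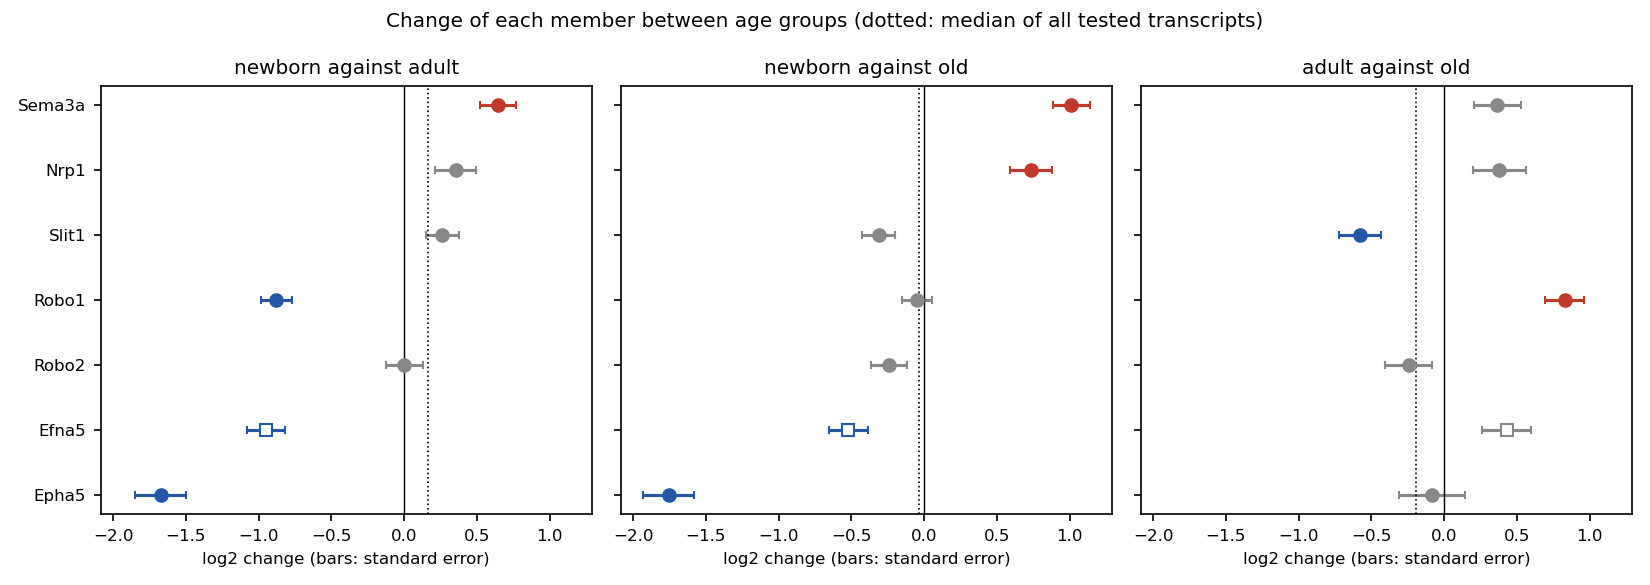
Panels plot the log2 change of 7 members (horizontal axis, with standard error bars) in the 3 age comparisons; red marks a call higher in the first group, blue a call lower, grey no call, open squares the fit over all probes, and the dotted line the median of all tested transcripts. Nrp2 is left out because no fold could be given against old rats, and Epha5 lies farthest from 0 in both newborn comparisons.

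The patterns most like each member were sought among 12631 probes of 9807 named genes, by Pearson r over the 27 rats. The nearest to Sema3a were Ncapd2 and Ccnb1 (r = 0.94 for both), the second being a cyclin of dividing cells. The nearest to Epha5 were Pnma3 and Jph3 (both 0.96), to Robo1 Casc4 and Rbbp4 (both 0.92), and to Nrp1 Casp8ap2 (0.89) and Ppp1r12a (0.87). Slit1 was nearest to Apbb1 (0.86) and Rps6kc1 (0.84), and Robo2 to Stx7 (0.89) and Itsn1 (0.88). Rats of 1 age share their age, so with group means removed these r were lower, from 0.56 to 0.83. For the dim probes, Nrp2 was nearest to Haus1 (0.88) and Postn (0.85) and Efna5 to Mical2 (0.90) and Manea (0.88), with 0.33 to 0.50 once group means were removed. These are descriptions over rats that share arrays and groups.

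Other guidance genes were read from a fixed list of 86, of which 81 had a probe and 60 were tested. Against adults, 28 were higher in newborns, 14 lower and 18 not called, with a median log2 change of 0.32. Against old rats the counts were 22, 14 and 24 (median 0.18), and in adults against old they were 12, 12 and 36 (median -0.09). As shares, 46.7% were higher and 23.3% lower in newborns than in adults, beside 40.1% and 26.1% of all transcripts. In newborns against old rats they were 36.7% and 23.3%, beside 28.3% and 31.5%, and in adults against old rats 20% and 20%, beside 15.5% and 32%. The 24 calls between adults and old rats fell to 12 with scan day as a random block. The counts of each family below are read against the same background, and no family was tested as a group.

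Plexins, the signalling partners of neuropilins, went both ways. Of 8 tested, 3 were higher and 4 lower in newborns than in adults (37.5% and 50%, beside 40.1% and 26.1% of all transcripts). Plxna2 was higher by 1.90 ± 0.21 (limma adjusted p = 1.88e-08), whereas Plxna3 was lower by 1.67 ± 0.12 (4.91e-12) and Plxna4 by 1.13 ± 0.17 (1.45e-06) on the log2 scale. Plxnc1, a receptor of the membrane semaphorin Sema7a, was 4.65-fold higher in newborns than in adults (limma adjusted p = 9.95e-07), and Sema7a was 3.77-fold lower in adults than in old rats (1.49e-08). Of 14 tested semaphorins, 5 were higher and 4 lower in newborns than in adults (35.7% and 28.6%), and 3 were higher and 5 lower in newborns than in old rats.

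Slit2 and Slit3, the other Slit ligands, differed in their order of ages. Slit3 was 5.69-fold higher in newborns than in old rats (limma adjusted p = 1.47e-14) and 0.89 ± 0.16 higher in adults than in old rats (4.43e-05). Slit2 was lower in adults than in old rats by 0.76 ± 0.13 on the log2 scale (limma adjusted p = 2.27e-05). Efna3, an ephrin ligand of EphA receptors, was 3.33-fold lower in newborns than in old rats (limma adjusted p = 7.79e-11), while Efna4 was higher in newborns than in adults, with means of 2.75 and 1.69. Of 4 tested ephrins, 2 were higher and 1 lower in newborns than in adults, and 1 higher and 1 lower in newborns than in old rats. Of 8 tested Eph receptors other than Epha5, 5 were higher and 1 lower in newborns than in adults, and 3 were higher and none lower in newborns than in old rats. Against adults the shares higher and lower were 50% and 25% of ephrins and 62.5% and 12.5% of Eph receptors. Those of all transcripts were 40.1% and 26.1% against adults, and 28.3% and 31.5% against old rats.

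Adhesion molecules of olfactory axons were represented by 10 tested genes, of which 2 were higher and 4 lower in newborns than in adults, and 3 higher and 2 lower in newborns than in old rats. These are 20% and 40% against adults, beside 40.1% and 26.1% of all transcripts. Against old rats they are 30% and 20%, beside 28.3% and 31.5%. Kirrel3, a relative of Kirrel2, was lower in newborns by 0.66 ± 0.15 on the log2 scale (limma adjusted p = 4.59e-04). That call rests on L2, whose mean was 3.20 against 4.24 to 4.39 in the other litters, 4.68 in adults and 4.75 in old rats; without L2, an alternative chosen after seeing the data, it was -0.38 and not called (limma adjusted p = 0.0262). Kirrel1 differed between newborns and adults by 0.17 ± 0.12 (0.222). Cntn4, a contactin, was 3.65-fold lower (limma adjusted p = 4.19e-09) and Ncam2 2.79-fold lower (2.11e-07). Unc5d, a netrin receptor family member, was 9.12-fold higher in newborns than in old rats (limma adjusted p = 5.61e-14), and Rtn4r, the Nogo receptor, was 4.74-fold higher in newborns than in adults (5.06e-07). Among the rest of the genes named for the size of their change, Sema4a was 3.87-fold lower in newborns than in old rats (limma adjusted p = 1.5e-10). Adults exceeded old rats in the semaphorin Sema6d (2.41-fold), the contactin Cntn2 (2.25-fold) and the plexin Plxnd1 (2.03-fold), and the small GTPase Rnd1 was 2.12-fold lower in adults (limma adjusted p from 2.14e-07 to 1.02e-04). Of 9 tested mediators of semaphorin signals inside the cell, 6 were higher and none lower in newborns than in adults, 6 were higher and 1 lower in newborns than in old rats, and 2 were higher and 2 lower in adults than in old rats. The share higher was 66.7% in both newborn comparisons, beside 40.1% of all transcripts against adults and 28.3% against old rats. In adults against old rats 22.2% were higher and 22.2% lower, beside 15.5% and 32%. Dpysl3 was on this list and on that of immature neuron markers, so the 2 lists overlap.

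**Figure D4:**
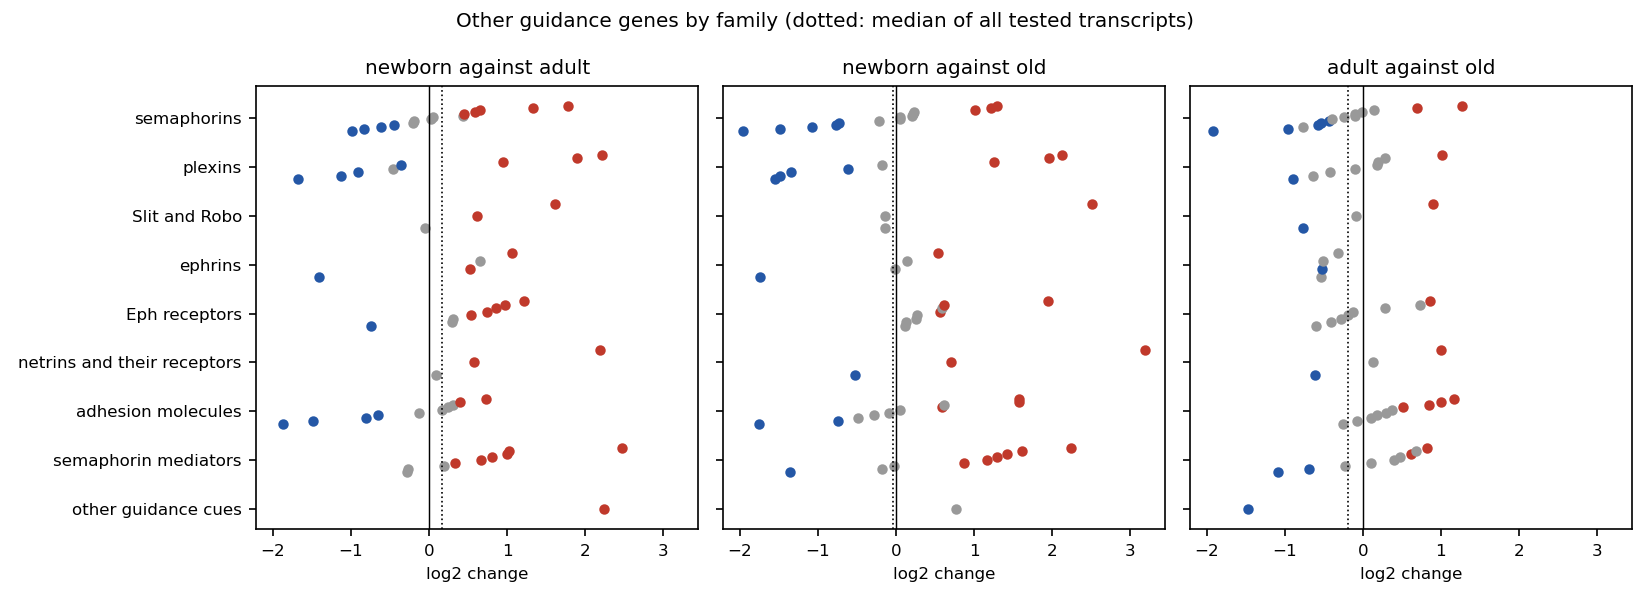
Each point is 1 of the 60 other guidance genes tested, placed by its log2 change (horizontal axis) in the 3 age comparisons and grouped by family (vertical axis); red marks a call higher in the first group, blue lower, grey no call, and the dotted line the median of all tested transcripts. Plexins and adhesion molecules spread to both sides, while most called Eph receptors lie to the right in newborn against adult.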

How the data were processed

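The arrays were labelled with Cy3 alone. The authors deposited Agilent Feature Extraction output (release 9.5.1.1 or 9.5.3.1 per the file headers) with an intensity for each spot, background-subtracted, and flags; the deposited flags (other columns) mark spots above background, saturated or outlying. The authors also deposited a value table of the ratio of intensity to array median, used as an alternative. The members and all gene lists were chosen with earlier results of these data known.

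The processed intensity was averaged per probe without the spots called outliers (3294 values), divided by the array median, floored at 0.01 and put on the log2 scale. A probe counted as above background where at least 0.5 of its spots carried the flags for a significant positive signal well over the local background and no flag for uneven or saturated signal. It was tested where this held on at least 3 arrays per litter and 6 of 8 adult or old arrays. Linear models with 6 groups were fitted in limma 3.58.1 (R 4.3.3) with Benjamini-Hochberg adjustment over all tested probes, and a call was an adjusted p under 0.01. The method was tested on simulated data. Litter pups and the rats of an age are separate animals. The brightest probe stood for a gene. All members were named, with the 3 other guidance genes of largest change and no overlap in each direction per comparison; relatives of members (Plxna2, Plxna4, Slit2, Kirrel1, Kirrel3) and the family examples beyond these were picked after their values were seen. Alternatives were other scalings, backgrounds, filters, floors, tests, blocks, probes and left-out rats. The number of arrays limits the precision.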

Additional observations from a re-analysis of the deposited data

Results flagged for a closer look

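In 3 of the 48 combinations of a member's brightest probe and a group, 1 rat lay apart from the others of its group, where chance gives about 1 in 20. For Nrp1 this was adult rat 16, with a level of 1.19 against 1.83 for the next adult. For Slit1 it was pup 34 of L4, with 2.53 against 2.19 for the next. For Efna5 it was old rat 20, with -1.01 against -1.33 for the next.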

How the results depend on the processing

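No call changed direction under the alternatives run. Of 908 changes of single members and Kirrel3 recomputed, 858 kept their direction and side of the threshold, 29 uncalled ones changed sign, 11 gained a call and 10 lost one; of 308 counts, 300 stayed within 1.5 times. The count of members called in newborn against old was 5 of 8 with no filter on dim probes, which adds Nrp2 and Efna5. The Nrp2 call rests on old values at background. For most alternatives in this paragraph the share of all transcripts called is not given, so their counts are not set beside a background. In adult against old the count of members called was 1 with the methods' t-test, with scan day as a random block and with the second brightest probe, and the count of other guidance genes fell from 24 to 12 with that block. Among litters it was 1 with the second brightest probe and, in alternatives chosen after seeing the data, 1 with only L2, L3 and L4, without and with scan day as a block. Without pup 24 of L2, Nrp1 was called between newborn and adult (0.39, limma adjusted p = 0.00775). Leaving out each rat in turn moved no count of called members beyond 1.5 times. Leaving out whole litters, chosen after seeing the data, ended the calls of Kirrel3 without L2 (newborn against old -0.46, limma adjusted p = 0.0101) and gave Slit1 a call against adults without L1 (0.30, 0.00963) and against old rats without L2 (-0.36, 0.00858). Nrp1 in L1 against old lost its call on the shared day alone. The numbers of rats are not shared between groups. No paired analysis was possible because the groups compared share no replicate numbers. Depth is limited most for Nrp2 and Efna5, whose probes were above background on 8 and 25 of 35 arrays.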
